A study of Saccharomyces cerevisiae with 27 samples.

Results

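Upper glycolysis is described here through 7 yeast genes, PGI1, PFK1, PFK2, PFK26, PFK27, FBA1 and TPI1, which were chosen by name for the steps between glucose 6-phosphate and the triose phosphates. Their symbols were matched to the NCBI Gene IDs of the expression files, and all 7 were found among the 5995 genes of the files and passed the low-count filter that left 5692 genes for testing. Messenger RNA of Saccharomyces cerevisiae was sequenced in 27 libraries from 3 strains on 3 carbon sources, with 3 individual colonies in each of the 9 groups, harvested in log phase. LCY002 carries a centromeric plasmid (CEN-HIS3) with 40 yeast genes laid out as an array, which serve galactose metabolism, the glycolytic steps and the making of ergosterol. LCY001 carries the CEN-HIS3 plasmid without the array, and BY4741 is the parent strain without a plasmid. All 3 strains share the genotype his3Δ1 leu2Δ0 met15Δ0 ura3Δ0. For all 3 strains the labels describe an overnight culture in medium without histidine, then dilution into glucose, galactose or ethanol/glycerol; how BY4741, with his3Δ1 and no plasmid, was grown in that medium is not clear from them, and any part of this in the comparisons with BY4741 was not tested. PGI1, PFK1, FBA1, PFK2 and TPI1 stand in that order at positions 13 to 17 of the 40 array genes in the genotype label, while PFK26 and PFK27 are not in that list.

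In this stretch of glycolysis a hexose phosphate is isomerised, phosphorylated again, split, and the products are brought to a common triose phosphate. The second phosphorylation, by phosphofructokinase, is the committed step, and the enzyme is activated by fructose 2,6-bisphosphate, a signalling metabolite made by separate kinases. Yeast runs these reactions forward on glucose and galactose and largely in reverse, towards hexose phosphates, on ethanol and glycerol, where the phosphofructokinase step is bypassed by fructose-1,6-bisphosphatase.

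Library totals ran from 14484847 to 16219263 expected counts. Levels of a single gene are given as CPM, library counts per standard library size after TMM scaling, and levels of different genes are compared only as TPM, which are per transcript length. Changes are log2 fold changes ± SE from edgeR's quasi-likelihood test, called at a Benjamini-Hochberg adjusted p below 0.05 over the 5692 genes. LEU2, URA3 and MET17 had 0 counts in every library, which allows up to 0.207 CPM (3 counts in the smallest library, counting error only). Of the genes of mating type a, STE2 and BAR1 were expressed in every group while MFA1 was listed at 0, and STE3 of the other mating type averaged 9.06 to 29.2 CPM. GAL1 averaged 8791 to 14917 CPM in the galactose groups and 9.84 to 47.8 CPM in the others, PCK1 1639 to 3113 CPM in ethanol/glycerol and 7.38 to 25.8 CPM in the others, and HXT3 2127 to 2472 CPM in glucose and 36.1 to 49.4 CPM in the others, as the culture labels say. Levels are shares of the mRNA of a whole culture, so that less transcript per cell and fewer cells with the transcript cannot be told apart. The files hold 1 entry per gene, so reads of a plasmid copy and of the chromosomal copy were not separated. Plasmid copy number was not measured, and its part in the results was not tested. HIS3, the plasmid marker, averaged 507 ± 18.9 CPM in LCY002 and 1496 ± 26.3 CPM in LCY001 on glucose, 438 ± 9.67 and 1171 ± 105 CPM on galactose, and 653 ± 11 and 1051 ± 48.7 CPM on ethanol/glycerol (SD, n = 3 each), so the marker was lower in LCY002 on every carbon source. BY4741, with the chromosomal his3Δ1 allele alone, averaged 27.9 to 46.8 CPM.

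The first comparison asks how far the transcripts of upper glycolysis differ in the strain with the array from both controls. All 5 array members were higher in LCY002 than in LCY001 whatever the carbon source, by 1.43 to 2.48 fold on glucose, 1.84 to 2.69 fold on galactose and 1.60 to 2.00 fold on ethanol/glycerol. Against BY4741 the same 5 were higher by 1.38 to 2.08 fold on glucose, 1.72 to 2.60 fold on galactose and 1.69 to 2.1 fold on ethanol/glycerol. In no case did the libraries of LCY002 overlap those of a control. These counts stand beside wide differences among all tested genes: against LCY001 28.5% were called higher and 25.3% lower on glucose, 20.2% higher and 18.1% lower on galactose, and 29.4% higher and 30.4% lower on ethanol/glycerol. Against BY4741 17.7% were called higher and 20.7% lower on glucose, 19.8% and 18.0% on galactose, and 28.2% and 31.5% on ethanol/glycerol. The choice of scale moved these background shares: with library totals as the scale, higher genes were 28.2% of all calls against LCY001 in glucose and 17.7% in galactose, while TMM gave 53.0% and 52.7%. Against BY4741 library totals gave 31.3% on glucose, 26.9% on galactose and 34.8% on ethanol/glycerol, while TMM gave 46.0%, 52.4% and 47.2%. The 5 array members were called higher on each carbon source under that scale too. Off the array, PFK26 was called lower in LCY002 than in LCY001 in glucose and higher on the other carbon sources, and against BY4741 it was called, higher, in ethanol/glycerol only. PFK27 was called higher in galactose and lower in ethanol/glycerol against both controls, and was called against neither in glucose. Both comparisons use the LCY002 libraries, so they are not independent.

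**Figure D1:**
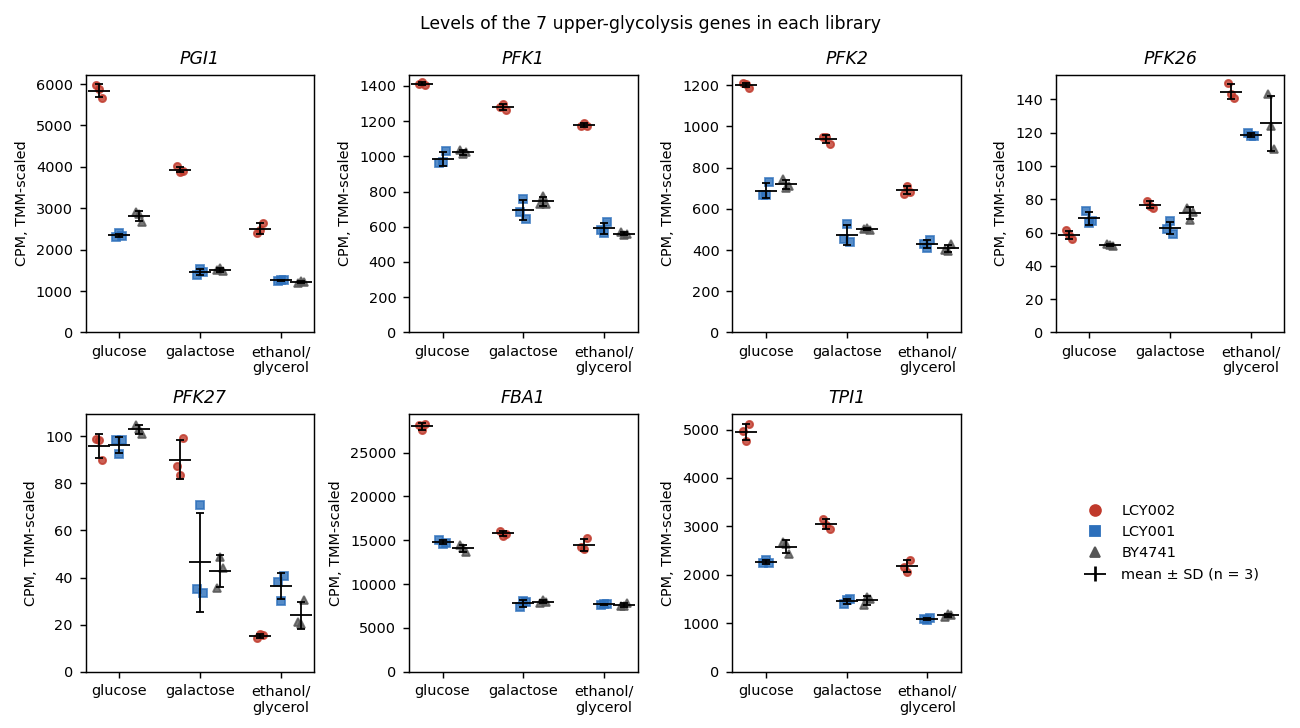
Levels of the 7 genes in each library, as TMM-scaled CPM on linear axes from 0, by carbon source, with LCY002 left of LCY001 and BY4741; points are libraries and bars are mean ± SD (n = 3). PGI1, PFK1, PFK2, FBA1 and TPI1 sit above both controls in every LCY002 library, PFK26 is highest in ethanol/glycerol, and PFK27 of LCY002 is at 83.7 to 99.3 CPM in galactose and at 14.2 to 15.9 CPM in ethanol/glycerol.

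PGI1 (gene ID 852495, YBR196C; build R64, chromosome II, 612236 to 613900, minus strand, 1 coding segment) encodes phosphoglucose isomerase, which interconverts glucose 6-phosphate and fructose 6-phosphate. In glucose PGI1 stood at 5970, 5874 and 5670 CPM in LCY002, at 2317, 2393 and 2339 CPM in LCY001, and at 2914, 2854 and 2671 CPM in BY4741. In galactose its levels were 4010, 3888 and 3898 CPM in LCY002, 1394, 1528 and 1458 CPM in LCY001, and 1496, 1564 and 1474 CPM in BY4741. In ethanol/glycerol they were 2390, 2481 and 2645 CPM in LCY002, 1245, 1269 and 1264 CPM in LCY001, and 1185, 1231 and 1229 CPM in BY4741. Every LCY002 library was above every control library on the same carbon source, and the LCY001 libraries were below those of BY4741 in glucose only. The log2 fold change of LCY002 over LCY001 was 1.31 ± 0.04 on glucose, 1.43 ± 0.04 on galactose and 0.99 ± 0.04 on ethanol/glycerol (edgeR adjusted p = 1.01e-18, 2.68e-19 and 4.73e-16). Over BY4741 it was 1.05 ± 0.04, 1.38 ± 0.04 and 1.04 ± 0.04. Of the 5 array members PGI1 had the highest fold change in glucose and in galactose against both controls. In glucose over BY4741 FBA1 was close to it, at 0.99 ± 0.04.

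Upstream of PGI1 and of TPI1 the 500 bases before the start codon hold the core CTTCC of the binding site of Gcr1, an activator of glycolytic genes, at 2 places that lie 29 bases apart in both genes. The stretches are shown because the spacing is the same at the start and the end of the pathway stretch, on the strand of the gene, with the core on either strand in capitals (GGAAG is CTTCC on the opposite strand). The PGI1 stretch is chrII:614215-614260 and the TPI1 stretch chrIV:556836-556881, both on the minus strand of build R64.
PGI1: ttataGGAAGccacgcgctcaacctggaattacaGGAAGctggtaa
TPI1: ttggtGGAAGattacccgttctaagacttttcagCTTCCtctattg
The core was found on either strand in the windows of all 7 genes, 1 to 3 times. PFK1 (-354 and -288) and PFK2 (-487 and -165) also hold 2 cores, at other spacings. The 2 cores lie on the same strand before PGI1 and on opposite strands before TPI1. The core is short, and 66.1% of 5978 windows of this length in the genome hold it and 30.0% hold it 2 or more times. How often a spacing of 29 bases occurs among them was not counted. A match is a description of the sequence, and binding was not measured.

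PFK1 (gene ID 853155, YGR240C; chromosome VII, 970771 to 973734, minus strand) and PFK2 (gene ID 855245, YMR205C; chromosome XIII, 671887 to 674766, minus strand) encode the alpha and beta subunits of phosphofructokinase, which makes fructose 1,6-bisphosphate. The coding sequences are related but share 0 words of 50 bases. The deposited expected counts of both genes were whole numbers in all 27 libraries, which an estimate that divides reads between genes need not be.

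In glucose PFK1 stood at 1413, 1421 and 1403 CPM in LCY002, at 960, 967 and 1032 CPM in LCY001, and at 1038, 1011 and 1023 CPM in BY4741. In galactose PFK1 stood at 1280, 1298 and 1261 CPM in LCY002, at 686, 758 and 645 CPM in LCY001, and at 732, 775 and 730 CPM in BY4741. In ethanol/glycerol PFK1 stood at 1170, 1190 and 1174 CPM in LCY002, at 583, 567 and 625 CPM in LCY001, and at 570, 555 and 558 CPM in BY4741. As TMM-scaled CPM, PFK1 was highest in glucose and lowest in ethanol/glycerol in all 3 strains. On that scale its libraries did not overlap between carbon sources within any strain. In TPM the LCY002 libraries did overlap, with PFK1 at means of 384, 381 and 379 on glucose, galactose and ethanol/glycerol. Over LCY001 the log2 fold change of PFK1 was 0.52 ± 0.05 on glucose, 0.88 ± 0.05 on galactose and 0.99 ± 0.05 on ethanol/glycerol (edgeR adjusted p = 8.26e-10, 2.18e-14 and 2.13e-15). Over BY4741 it was 0.46 ± 0.05, 0.78 ± 0.05 and 1.07 ± 0.05.

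In glucose PFK2 stood at 1209, 1204 and 1189 CPM in LCY002, at 668, 669 and 729 CPM in LCY001, and at 744, 702 and 711 CPM in BY4741. In galactose PFK2 stood at 948, 951 and 917 CPM in LCY002, at 454, 526 and 437 CPM in LCY001, and at 503, 507 and 496 CPM in BY4741. In ethanol/glycerol PFK2 stood at 673, 711 and 684 CPM in LCY002, at 430, 408 and 450 CPM in LCY001, and at 401, 395 and 429 CPM in BY4741. In LCY002 PFK2 was stepwise lower from glucose through galactose to ethanol/glycerol, in CPM and also in mean TPM (336, 288 and 229). Each LCY002 library was again above all control libraries on its carbon source. The log2 fold change of PFK2 over LCY001 was 0.80 ± 0.05 on glucose, 0.99 ± 0.05 on galactose and 0.68 ± 0.05 on ethanol/glycerol (edgeR adjusted p = 2.34e-12, 2.84e-14 and 8.19e-11). Over BY4741 it was 0.74 ± 0.05, 0.90 ± 0.05 and 0.76 ± 0.05.

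The balance of the subunit transcripts was followed as the ratio of PFK1 to PFK2 in TPM within each library. In LCY002 the ratio was 1.13, 1.15 and 1.15 on glucose, 1.31, 1.32 and 1.33 on galactose, and 1.69, 1.62 and 1.67 on ethanol/glycerol. In LCY001 it was 1.39, 1.40 and 1.37 on glucose, 1.47, 1.40 and 1.43 on galactose, and 1.31, 1.35 and 1.35 on ethanol/glycerol. In BY4741 it was 1.35, 1.40 and 1.40 on glucose, 1.41, 1.48 and 1.43 on galactose, and 1.38, 1.36 and 1.26 on ethanol/glycerol. PFK1 exceeded PFK2 per length in every library. In LCY002 the ratio was below both controls in glucose and galactose and above both in ethanol/glycerol, with no overlap of libraries in any of these 6 comparisons, each at an exact two-sided permutation p of 0.1, the smallest that 3 against 3 libraries can give. The ratios of LCY001 and BY4741 overlapped on all 3 carbon sources.

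**Figure D2:**
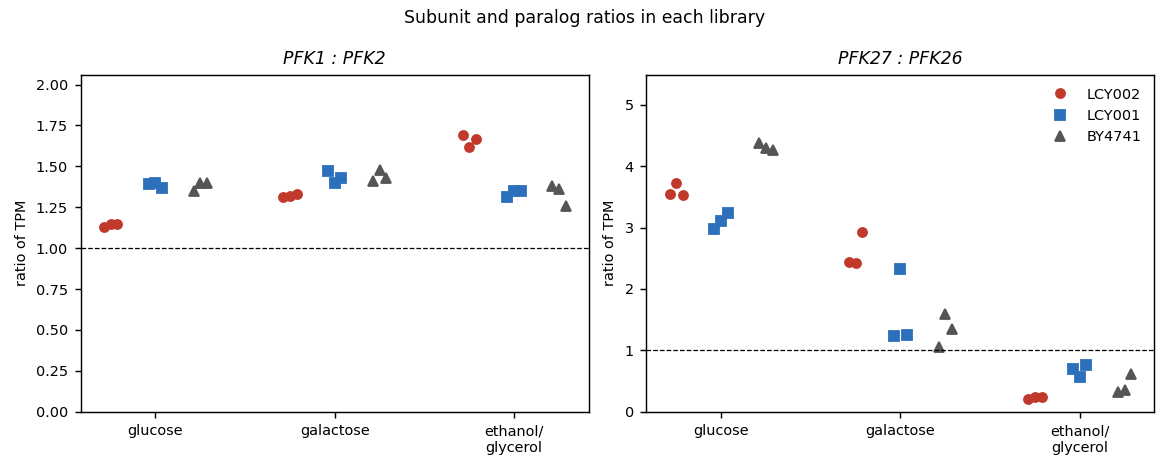
Ratio of PFK1 to PFK2 (left) and of PFK27 to PFK26 (right) in TPM, 1 point per library, by carbon source with LCY002 left of LCY001 and BY4741; the dashed line marks equal TPM. The subunit ratio of LCY002 runs from 1.13 in a glucose library to 1.69 in an ethanol/glycerol library while both controls stay between 1.26 and 1.48, and the kinase ratio crosses the line between galactose and ethanol/glycerol in all 3 strains.

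PFK26 (gene ID 854699, YIL107C; chromosome IX, 163278 to 165761, minus strand) and PFK27 (gene ID 853984, YOL136C; chromosome XV, 67561 to 68754, minus strand) encode 6-phosphofructo-2-kinases, which make the phosphofructokinase activator fructose 2,6-bisphosphate. Their longest shared run of bases is 11. They were the members with the lowest levels, and in ethanol/glycerol against glucose their transcripts moved in opposite directions in all 3 strains. For this reason 300 bases upstream of each are shown on the minus strand of build R64, with matches on either strand to 3 cores in capitals: CTTCC of Gcr1, CACGTG (the E-box bound by Tye7 and Cbf1) and AGGGG (the stress response element bound by Msn2 and Msn4). The PFK26 stretch, chrIX:165927-166226, ends 166 bases before the start codon, and the PFK27 stretch, chrXV:68755-69054, ends at the start codon. Each was placed where 300 bases held the most matches, nearest to the start codon on ties.
PFK26: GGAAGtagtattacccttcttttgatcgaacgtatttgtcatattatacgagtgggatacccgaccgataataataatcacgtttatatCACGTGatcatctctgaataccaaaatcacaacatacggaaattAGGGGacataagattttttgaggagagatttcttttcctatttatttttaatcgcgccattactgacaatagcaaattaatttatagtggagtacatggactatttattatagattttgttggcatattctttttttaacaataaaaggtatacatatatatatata
PFK27: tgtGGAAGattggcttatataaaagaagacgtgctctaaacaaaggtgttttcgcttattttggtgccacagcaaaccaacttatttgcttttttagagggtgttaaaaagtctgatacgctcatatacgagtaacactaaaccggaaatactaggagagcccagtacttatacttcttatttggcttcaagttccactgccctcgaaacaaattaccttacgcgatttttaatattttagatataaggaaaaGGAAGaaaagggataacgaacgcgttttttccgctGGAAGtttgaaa
In its 500 bases PFK26 held 1 Gcr1 core, 1 E-box and 1 stress element, with first bases at -465, -376 and -332 from the start codon. PFK27 held 3 Gcr1 cores, at -297, -47 and -12, and neither of the other cores. Of the 5978 windows in the genome 6.24% hold the E-box, 34.1% the stress element and 10.2% at least 3 Gcr1 cores. Among the 7 genes the E-box was in the PFK26 window alone and the stress element in those of PFK26 and TPI1, and no match of one core overlapped another.

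PFK26 stood at 61.3, 58.2 and 56.0 CPM in LCY002, at 72.8, 65.5 and 67.0 CPM in LCY001, and at 53.0, 52.7 and 52.1 CPM in BY4741 in glucose. In galactose it stood at 78.8, 76.2 and 74.8 CPM in LCY002, at 62.3, 66.8 and 59.4 CPM in LCY001, and at 74.6, 67.5 and 72.2 CPM in BY4741. In ethanol/glycerol the levels were 150, 143 and 141 CPM in LCY002, 120, 118 and 118 CPM in LCY001, and 143, 124 and 110 CPM in BY4741. PFK26 was highest in ethanol/glycerol in every strain, and the 3 BY4741 libraries there were spread more widely than the others. LCY002 lay below LCY001 in glucose, with a log2 fold change of -0.23 ± 0.07, and above it in galactose and ethanol/glycerol, with 0.29 ± 0.07 and 0.28 ± 0.06 (edgeR adjusted p = 0.00675, 0.00128 and 0.000296). The glucose call was lost without LCY001 replicate 1 (-0.18, edgeR adjusted p = 0.0504), and the galactose call was lost, at 0.15, with library totals as the scale (edgeR adjusted p = 0.0702). Against BY4741 PFK26 was called in ethanol/glycerol only (0.20 ± 0.06, with overlapping libraries), a call lost with library totals as the scale, with only the 6 libraries compared in the fit and without BY4741 replicate 3 (0.12). The glucose and galactose values against BY4741 were 0.15 ± 0.07 and 0.10 ± 0.07 (edgeR adjusted p = 0.0839 and 0.245), with LCY002 above BY4741 without overlap in both. With only the 6 libraries compared in the fit, the glucose value was called (0.18, edgeR adjusted p = 0.0095).

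PFK27 stood at 99.0, 98.6 and 90.0 CPM in LCY002, at 98.4, 92.5 and 98.5 CPM in LCY001, and at 105, 103 and 101 CPM in BY4741 in glucose. In galactose it stood at 87.2, 83.7 and 99.3 CPM in LCY002, at 35.2, 70.7 and 33.6 CPM in LCY001, and at 35.5, 48.6 and 44.1 CPM in BY4741. In ethanol/glycerol the levels were 14.2, 15.9 and 15.4 CPM in LCY002, 38.3, 30.1 and 40.7 CPM in LCY001, and 21.3, 20.2 and 30.5 CPM in BY4741. In glucose the log2 fold change of LCY002 over LCY001 was -0.01 ± 0.19, with a 95% interval of -0.41 to 0.39, and over BY4741 it was -0.10 ± 0.19; neither was called. In galactose LCY002 was above every control library, with 0.96 ± 0.20 over LCY001 and 1.08 ± 0.20 over BY4741 (edgeR adjusted p = 0.000817 and 0.000274). LCY001 replicate 2 stood apart in galactose, and without it the first of these was 1.39 (edgeR adjusted p = 5.08e-08); with only the 6 libraries compared in the fit the call was lost (0.96, edgeR adjusted p = 0.107). In ethanol/glycerol LCY002 was below every control library, with -1.26 ± 0.25 against LCY001 and -0.66 ± 0.26 against BY4741 (edgeR adjusted p = 0.000196 and 0.0320). The second of these calls was lost without BY4741 replicate 3 (-0.45, edgeR adjusted p = 0.184) and without any of the LCY002 replicates.

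Set per length, PFK27 exceeded PFK26 on the sugars and was below it in ethanol/glycerol in all 27 libraries. The ratio of PFK27 to PFK26 averaged 3.61 ± 0.111 in LCY002, 3.11 ± 0.128 in LCY001 and 4.31 ± 0.0552 in BY4741 in glucose. In galactose it averaged 2.60 ± 0.288 in LCY002, 1.61 ± 0.624 in LCY001 and 1.33 ± 0.269 in BY4741. In ethanol/glycerol it averaged 0.231 ± 0.0194 in LCY002, 0.675 ± 0.104 in LCY001 and 0.432 ± 0.155 in BY4741 (SD, n = 3 each). LCY002 did not overlap either control on any carbon source, and it was above both in galactose and below both in ethanol/glycerol, each at the smallest exact permutation p of 0.1.

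FBA1 (gene ID 853805, YKL060C; chromosome XI, 326408 to 327487, minus strand) encodes fructose-bisphosphate aldolase, which splits the hexose bisphosphate into the triose phosphates. In glucose FBA1 stood at 28145, 27525 and 28253 CPM in LCY002, at 15048, 14579 and 14712 CPM in LCY001, and at 14454, 14145 and 13646 CPM in BY4741. In galactose FBA1 stood at 16047, 15533 and 15754 CPM in LCY002, at 7355, 8101 and 7941 CPM in LCY001, and at 7797, 8229 and 7968 CPM in BY4741. In ethanol/glycerol FBA1 stood at 14231, 13968 and 15217 CPM in LCY002, at 7626, 7689 and 7692 CPM in LCY001, and at 7482, 7520 and 7830 CPM in BY4741. The step between the strains was close to the same size on each carbon source: the log2 fold change over LCY001 was 0.92 ± 0.04, 1.02 ± 0.04 and 0.92 ± 0.04 in glucose, galactose and ethanol/glycerol, and over BY4741 it was 0.99, 0.98 and 0.93 (SE 0.04 each; edgeR adjusted p at most 7.44e-16). FBA1 was the most abundant of the 7 transcripts per length in every group, with 66.4% to 72.7% of their summed TPM on average.

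TPI1 (gene ID 851620, YDR050C; chromosome IV, 555726 to 556472, minus strand) encodes triosephosphate isomerase, which turns dihydroxyacetone phosphate into glyceraldehyde 3-phosphate. In glucose TPI1 stood at 4968, 4766 and 5111 CPM in LCY002, at 2245, 2312 and 2242 CPM in LCY001, and at 2671, 2640 and 2422 CPM in BY4741. In galactose TPI1 stood at 3163, 3024 and 2953 CPM in LCY002, at 1398, 1475 and 1498 CPM in LCY001, and at 1374, 1552 and 1504 CPM in BY4741. In ethanol/glycerol TPI1 stood at 2160, 2062 and 2315 CPM in LCY002, at 1087, 1065 and 1116 CPM in LCY001, and at 1130, 1182 and 1171 CPM in BY4741. As for PGI1, the LCY001 libraries were below those of BY4741 in glucose. Unlike PGI1, they were also below them in ethanol/glycerol, where the difference was not called (-0.09 ± 0.05, edgeR adjusted p = 0.256). The log2 fold change of LCY002 over LCY001 was 1.13 ± 0.05 on glucose, 1.06 ± 0.05 on galactose and 1.00 ± 0.05 on ethanol/glycerol, and over BY4741 it was 0.94 ± 0.05, 1.04 ± 0.05 and 0.91 ± 0.05 (edgeR adjusted p at most 3.53e-14).

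The 95% intervals of the fitted log2 fold changes, on the TMM scale, were set beside 1, a doubling, as a description. With library totals as the scale the median of all genes over LCY001 moved from 0.014 to -0.092 in glucose. In galactose it moved from 0.002 to -0.135, and in ethanol/glycerol from -0.004 to -0.052. The placement of an interval that ends near 1 therefore depends on the scale, and intervals with library totals are not given here. Against LCY001, PFK1 lay below it in glucose (0.42 to 0.61) and galactose (0.78 to 0.98), and its interval held 1 in ethanol/glycerol (0.90 to 1.09). PFK2 lay below it in glucose (0.69 to 0.91) and ethanol/glycerol (0.57 to 0.79). PGI1 lay above it in glucose (1.22 to 1.40) and galactose (1.34 to 1.52), and TPI1 in glucose (1.02 to 1.23). FBA1 held 1 on all 3 carbon sources. With BY4741 as the control, PFK1 and PFK2 lay below 1 on the same carbon sources, PGI1 lay above it in galactose only (1.29 to 1.47), and every other interval of the 5 genes held 1.

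**Figure D3:**
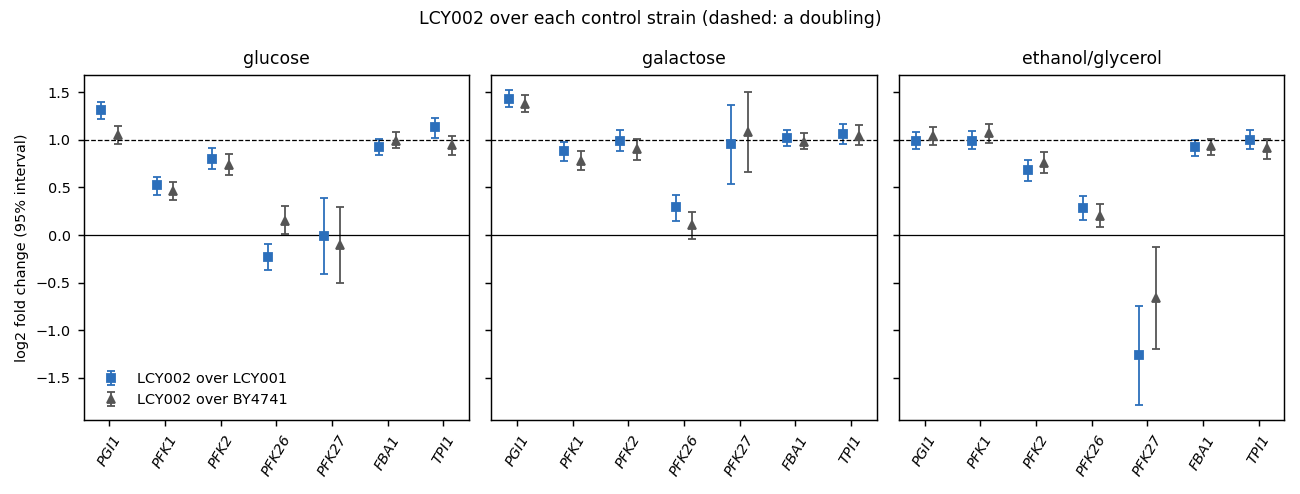
Log2 fold change of LCY002 over LCY001 (squares) and over BY4741 (triangles) for the 7 genes on each carbon source, with 95% intervals; the solid line marks no change and the dashed line a doubling. PFK1 lies at 0.52 and 0.46 in glucose and at 0.99 and 1.07 in ethanol/glycerol, and PFK27 lies near 1 in galactose and below 0 in ethanol/glycerol.

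Within the array the 5 genes stood in the middle and the lower part of the order of fold changes over LCY001. Over LCY001 the 40 array genes had a median log2 fold change of 1.08 on glucose as on galactose and 1.30 on ethanol/glycerol, and the 5 had 0.92, 1.02 and 0.99. Ranked from the highest, PGI1 was number 14 in glucose and 14 in galactose and number 28 in ethanol/glycerol. PFK1 was number 35, 31 and 27 on these carbon sources, and PFK2 was number 29, 25 and 34. FBA1 and TPI1 ranked between 19 and 30. PFK1 stands next to PGI1 in the array order of the genotype label, and their log2 fold changes were 0.52 and 1.31 in glucose.

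**Figure D4:**
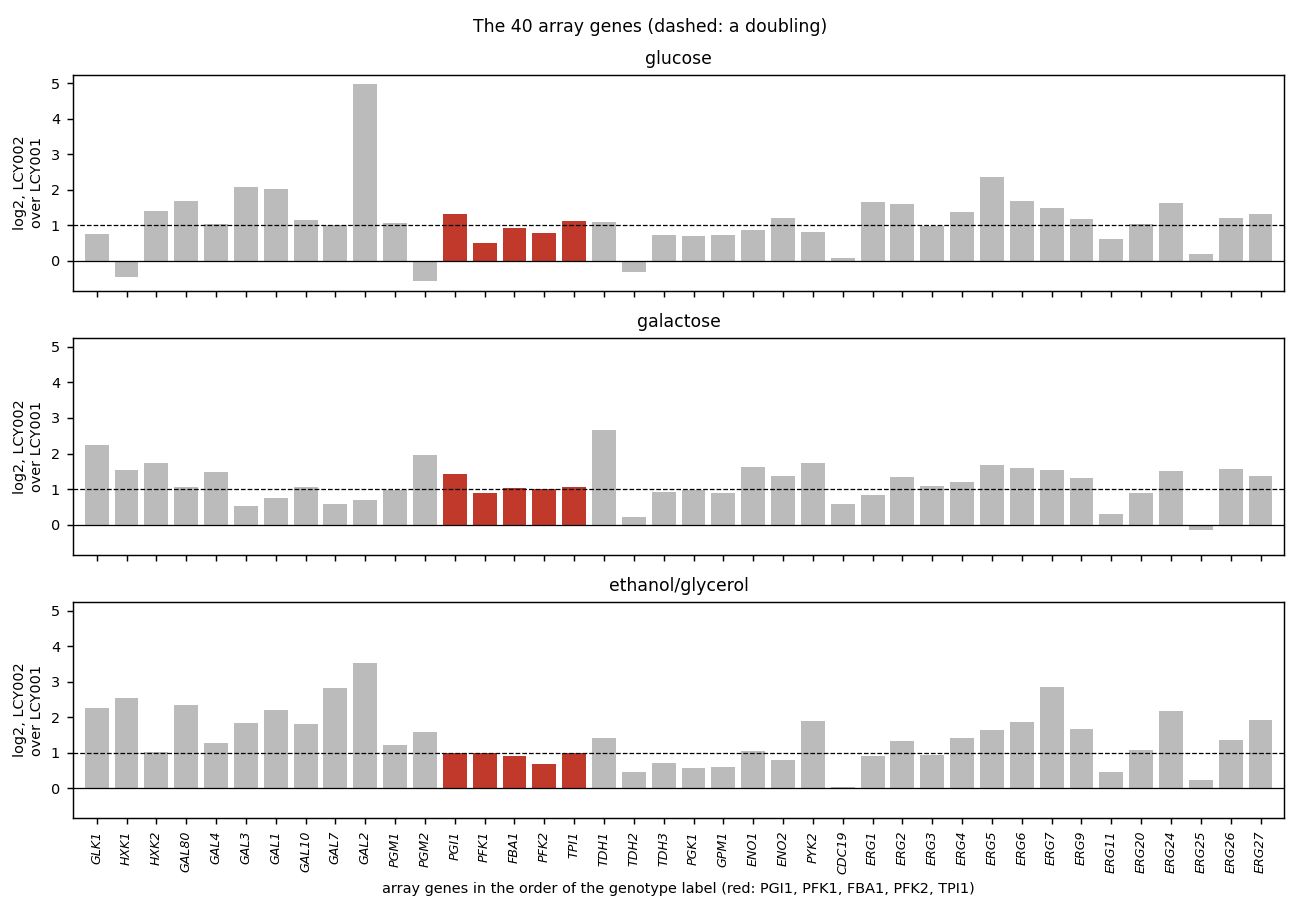
Log2 fold change of LCY002 over LCY001 for the 40 array genes in the order of the genotype label, by carbon source, with PGI1, PFK1, FBA1, PFK2 and TPI1 in red and a dashed line at a doubling. The 5 genes stand between 0.52 and 1.43, with neighbours on both sides that range more widely.

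Per length, the order of levels was FBA1, TPI1, PGI1, PFK1, PFK2 and then the kinases in all 9 groups. In LCY002 in glucose FBA1 averaged 22529 ± 182 TPM, TPI1 6102 ± 103, PGI1 2922 ± 115, PFK1 384 ± 8.48, PFK2 336 ± 7.80, PFK27 69.0 ± 4.71 and PFK26 19.1 ± 1.05 TPM. In BY4741 in glucose FBA1 averaged 11420 ± 55.8 TPM, TPI1 3201 ± 93.7, PGI1 1417 ± 28.0, PFK1 280 ± 7.05, PFK2 203 ± 4.14, PFK27 74.6 ± 0.720 and PFK26 17.3 ± 0.378 TPM (SD, n = 3 each). No neighbours in either order overlapped. The 7 genes together held 3.24% of all TPM in LCY002, 1.77% in LCY001 and 1.66% in BY4741 in glucose. In galactose they held 2.1%, 1.11% and 1.07% in these strains, and in ethanol/glycerol 1.92%, 1.03% and 1.04%. The ratio of FBA1 to TPI1 in TPM lay between 3.31 and 4.71 in all libraries, and in LCY002 it was below LCY001 without overlap in glucose (3.69 ± 0.0757 in LCY002 and 4.25 ± 0.128 in LCY001) and in ethanol/glycerol (4.34 ± 0.0727 and 4.59 ± 0.115), while it overlapped BY4741 on every carbon source.

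Carbon source was compared next within each strain. In BY4741, the strain without a plasmid, PGI1, PFK1, PFK2, FBA1, TPI1 and PFK27 were lower and PFK26 was higher than in glucose, both in galactose and in ethanol/glycerol. Of all genes, 31.7% were called lower and 33.9% higher in galactose, and 37.7% lower and 43.7% higher in ethanol/glycerol, so a call by itself is common here. With library totals as the scale the split moved to 1204 genes lower and 2681 higher in galactose, where TMM gave 1802 and 1928, and to 1589 lower and 3174 higher in ethanol/glycerol, where TMM gave 2148 and 2485. The log2 fold changes in ethanol/glycerol were -1.21 ± 0.04 for PGI1, -0.87 ± 0.05 for PFK1, -0.82 ± 0.05 for PFK2, -0.89 ± 0.04 for FBA1 and -1.15 ± 0.05 for TPI1. PFK27 fell further, by 2.1 on the log2 scale (SE 0.21), and PFK26 rose by 1.26 ± 0.07. In galactose the log2 fold changes were -0.90 for PGI1, -0.46 for PFK1, -0.52 for PFK2, -0.82 for FBA1, -0.80 for TPI1 and -1.27 for PFK27, and PFK26 rose by 0.44 ± 0.07.

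In LCY002 the 5 array members were also lower than in glucose on both carbon sources (background 26.4% called lower in galactose and 40.4% in ethanol/glycerol; 33.7% and 43.2% called higher). With library totals as the scale 69.5% of all calls were higher in galactose and 62.9% in ethanol/glycerol, while TMM gave 56.0% and 51.7%. PFK1 had the smallest change, -0.14 ± 0.05 in galactose and -0.26 ± 0.05 in ethanol/glycerol, and neither was called with library totals as the scale (-0.07 and -0.09; edgeR adjusted p = 0.215 and 0.0714). PFK2, its partner subunit, changed by -0.36 ± 0.05 and -0.80 ± 0.05. PFK26 rose by 0.39 ± 0.07 in galactose and 1.31 ± 0.07 in ethanol/glycerol. PFK27 was not called in galactose (-0.09 ± 0.19, 95% interval -0.49 to 0.31) and fell by 2.66 on the log2 scale in ethanol/glycerol.

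In LCY001 the 5 array members were lower on both carbon sources, by 0.50 to 0.92 on the log2 scale in galactose and by 0.68 to 1.06 in ethanol/glycerol (background 28.3% and 37.9% called lower; 31.1% and 40.2% called higher). Library totals gave 72.5% and 61.6% of all calls as higher there, while TMM gave 52.3% and 51.5%. PFK26 was not called in galactose (-0.12 ± 0.07, edgeR adjusted p = 0.116) and rose by 0.80 ± 0.06 in ethanol/glycerol. PFK27 changed by -1.05 ± 0.20 in galactose, or -1.49 without replicate 2, and by -1.41 ± 0.20 in ethanol/glycerol. With only the 6 libraries compared in the fit the galactose call was lost (edgeR adjusted p = 0.0503).

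**Figure D5:**
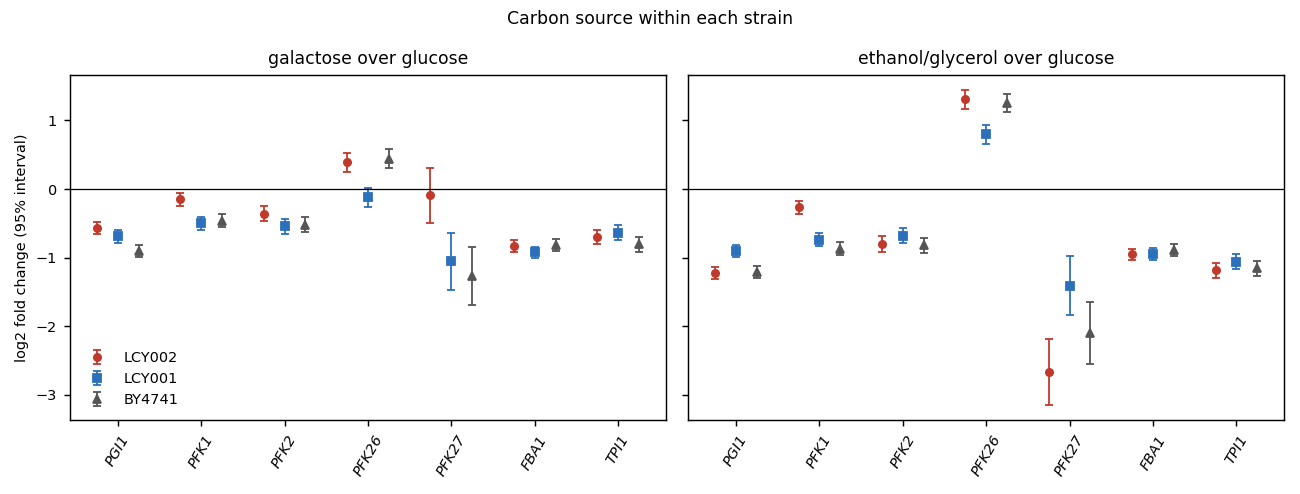
Log2 fold change of galactose over glucose (left) and of ethanol/glycerol over glucose (right) for the 7 genes in LCY002, LCY001 and BY4741, with 95% intervals. PFK26 lies above 0 in ethanol/glycerol in all 3 strains while the other 6 genes lie below it, and PFK1 of LCY002 is nearer to 0 than PFK1 of either control.

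Whether a strain difference itself depended on the carbon source was tested as an interaction. For LCY002 against LCY001, 4 of 7 members were called for galactose minus glucose and 4 of 7 for ethanol/glycerol minus glucose, where 47.3% and 60.5% of all genes were called. PFK1 had 0.36 ± 0.07 and 0.48 ± 0.07 for these contrasts, so its excess in LCY002 was larger off glucose. PFK26 had 0.51 ± 0.09 for both. PFK27 had 0.96 ± 0.27 and -1.25 ± 0.31, opposite signs for the sugar and for ethanol/glycerol. PGI1 was called for ethanol/glycerol only (-0.32 ± 0.06), and PFK2 for galactose only (0.19 ± 0.08, edgeR adjusted p = 0.0408). The PFK2 call was lost with DESeq2, RLE size factors, library totals, only the libraries compared and the replicate block. Without single libraries its value ran from 0.14 to 0.27, and several of those fits also lost the call. FBA1 and TPI1 were called for neither contrast.

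Against BY4741, 3 of 7 members were called for galactose minus glucose, where 11.2% of all genes were, namely PGI1 (0.33 ± 0.06), PFK1 (0.32 ± 0.07) and PFK27 (1.18 ± 0.28). Of all genes called there 48.5% were higher, or 33.5% with library totals as the scale. For ethanol/glycerol minus glucose PFK1 was the only member called (0.61 ± 0.07, edgeR adjusted p = 6e-08), where 39.5% of all genes were. PFK1 was the member called in all 4 of these contrasts. The contrasts share the LCY002 libraries, and those to each control share its glucose libraries.

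LCY001 was set against BY4741 to show what the plasmid strain without the array does. In glucose 3 of 7 members were called, where 55.4% of all genes were: PGI1 (-0.26 ± 0.04) and TPI1 (-0.19 ± 0.05) were lower in LCY001 and PFK26 was higher (0.38 ± 0.07). In galactose only PFK26 was called (-0.18 ± 0.07, edgeR adjusted p = 0.0292), where 38.9% of all genes were, and the call was lost with library totals as the scale and without any of 4 of the 6 libraries. PFK27 was 0.12 ± 0.21 there, or -0.31 without LCY001 replicate 2, and was called in neither fit; without that library 3 members were called, all lower in LCY001. In ethanol/glycerol edgeR's quasi-likelihood test called 0 of 7 members and DESeq2 also 0, and 1 member, PFK27, had an unadjusted p under 0.05 in edgeR, where 11.5% of all genes were called. PFK27 had the largest value there, 0.60 ± 0.23 (edgeR adjusted p = 0.0990). Without BY4741 replicate 3 it was called at 0.81, and PFK26 at -0.17 (edgeR adjusted p = 0.0332 and 0.0373). For the interaction, PGI1 and PFK26 were called for galactose minus glucose (0.21 ± 0.06 and -0.56 ± 0.10) and for ethanol/glycerol minus glucose (0.31 ± 0.06 and -0.46 ± 0.09), where 50.9% and 46.0% of all genes were called. With library totals as the scale the share of higher genes among all calls moved to 61.9% in glucose, 69.5% in galactose and 34.4% for ethanol/glycerol minus glucose, while TMM gave 49.8%, 53.2% and 49.3%.

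The genes around this stretch were read from the same fits. Of the 12 other glycolytic genes on the array, 9 were higher, 2 lower and 1 not called in LCY002 against LCY001 in glucose (median log2 fold change 0.76, and 0.01 over all tested genes), 12 were higher in galactose (median 1.45), and 11 were higher and 1 not called in ethanol/glycerol (median 0.91). In glucose HXK1 and TDH2 were the lower ones and CDC19, the main pyruvate kinase gene, the one not called. Against BY4741 HXK1 was higher in LCY002 in glucose, at 1113 ± 53.5 and 450 ± 47.6 CPM (1.30 ± 0.18), while LCY001 averaged 1521 ± 225 CPM. The genes of this list with the largest changes were HXK2, the hexokinase of growth on glucose (4309 ± 193 CPM in LCY002 and 1610 ± 125 CPM in LCY001 in glucose), TDH1, a glyceraldehyde-3-phosphate dehydrogenase (3168 ± 360 and 501 ± 84.2 CPM in galactose), and HXK1 (2400 ± 193 and 411 ± 8.20 CPM in ethanol/glycerol).

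Both genes that act against the kinase and phosphofructokinase steps are off the array. FBP1, which encodes the gluconeogenic fructose-1,6-bisphosphatase, was at 808, 767 and 817 CPM in LCY002, at 529, 549 and 527 CPM in LCY001, and at 712, 671 and 584 CPM in BY4741 in ethanol/glycerol, with a log2 fold change of 0.58 ± 0.06 for LCY002 over LCY001. In galactose FBP1 was lower in LCY002, at 13.2 ± 0.832 CPM, against 19.6 ± 0.840 CPM in LCY001. In glucose it averaged 7.75 ± 0.853 CPM in LCY002 and 8.17 ± 0.925 CPM in LCY001 and was not called (-0.08 ± 0.11). FBP26, which encodes fructose-2,6-bisphosphatase, averaged 42.7 ± 0.887 CPM in LCY002, against 72.3 ± 8.03 CPM in LCY001 and 44.0 ± 2.42 CPM in BY4741, in glucose (LCY002 over LCY001 -0.76 ± 0.07). In ethanol/glycerol FBP26 averaged 130 ± 2.16 CPM in LCY002, 83.7 ± 6.04 CPM in LCY001 and 82.4 ± 4.62 CPM in BY4741 (0.63 ± 0.06 over LCY001), and in galactose it was not called (0.10 ± 0.07). In BY4741 FBP1 rose by 6.75 ± 0.08 on the log2 scale in ethanol/glycerol over glucose, opposite to 6 of the 7 members.

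Of 6 regulators of glycolytic genes (GCR1, GCR2, RAP1, TYE7, REB1 and ABF1), 2 were higher and 1 lower in LCY002 than in LCY001 on glucose, 1 was higher and 1 lower on galactose, and 4 were lower on ethanol/glycerol (medians 0.02, -0.07 and -0.25). Over all tested genes 28.5% were called higher and 25.3% lower on glucose. The shares were 20.2% and 18.1% on galactose, and 29.4% and 30.4% on ethanol/glycerol, so calls among these regulators are not set apart from the background. TYE7, which encodes an E-box factor of glycolytic genes, averaged 113 ± 6.91 CPM in LCY002 and 217 ± 7.86 CPM in LCY001 in ethanol/glycerol (-0.94 ± 0.10). GCR1 averaged 240 ± 5.98 CPM in LCY002 and 205 ± 8.46 CPM in LCY001 in galactose (0.22 ± 0.05), a call lost with library totals as the scale (0.09), where the regulators called in galactose were 0 higher and 4 lower. In BY4741 GCR1 averaged 249 ± 4.64 CPM in galactose, and LCY002 was not called against it (-0.05 ± 0.05, edgeR adjusted p = 0.465).

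A list of 12 genes at branches of this stretch held genes of trehalose, the pentose phosphates, mannose, amino sugars and glycerol, and the phosphoglucomutase genes PGM1 and PGM2. In LCY002 against LCY001, 2 were higher and 7 lower on glucose, 5 higher and 4 lower on galactose, and 5 higher and 4 lower on ethanol/glycerol (medians -0.17, 0.18 and 0.16). Beside these counts, 28.5% of all tested genes were called higher and 25.3% lower on glucose. The shares were 20.2% and 18.1% on galactose, and 29.4% and 30.4% on ethanol/glycerol, so a call by itself is common. PGM1 and PGM2 of this list are on the array. GPD1, which draws dihydroxyacetone phosphate towards glycerol, averaged 168 ± 14.0 CPM in LCY002 and 399 ± 31.0 CPM in LCY001 in glucose (-1.25 ± 0.09). PGM2, a phosphoglucomutase, averaged 1098 ± 137 CPM in LCY002 and 283 ± 94.6 CPM in LCY001 in galactose (1.96 ± 0.17). In BY4741 it averaged 952 ± 24.1 CPM there, and LCY002 was not called against BY4741 (0.21 ± 0.16, edgeR adjusted p = 0.332). TPS1, of trehalose synthesis, had the largest value in glucose (-3.35 ± 1.06), but its libraries were widely spread, at 12.4, 17.6 and 5.22 CPM in LCY002 and 123, 22.4 and 216 CPM in LCY001, and the call was lost without LCY001 replicate 3 (-2.62) or LCY002 replicate 3 (-3.00).

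Across the 9 group means of log2(CPM + 1), the array members formed a tight set, and PFK26 and PFK27 ran opposite to each other. The 5 array members correlated with each other at Pearson's r of 0.936 to 0.998, and PFK26 with PFK27 at -0.861. With the array members PFK27 correlated at 0.475 to 0.625 and PFK26 at -0.518 to -0.358. The genes most like each member, of 5427 candidates outside the 7 members with a mean of at least 5 CPM, were mostly array genes for the array members: TDH3 was first for FBA1 (0.989) and TPI1 (0.984), and ERG2 for PGI1 (0.984), PFK1 (0.958) and PFK2 (0.983). FOL2, which is not on the array, was among the 3 most alike for PGI1, PFK1, PFK2 and TPI1 (0.957 to 0.983). PFK26 was most like FAT3 (0.995), GLO4 (0.993) and YRR1 (0.993), and PFK27 most like ERG8 (0.979), ILS1 (0.969) and CDC60 (0.968), none of them on the array. These are descriptions over 9 points that share strains and carbon sources.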

How the data were processed

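Each library had a deposited table with 1 entry per gene, keyed by NCBI Gene ID, that holds RSEM expected counts, TPM and FPKM, per the file headers. The authors' expected counts were rounded to whole numbers for the count tests, the deposited TPM were used to compare genes of different length, and the deposited FPKM were used as an alternative scale. HISAT2 2.1.0, Bowtie2 2.2.5, RSEM 1.2.8 and the R64 genome are named in the submitters' processing notes, with strand handling not given in the sources used here. Of 5995 Gene IDs, 5980 matched the RefSeq annotation of R64. Levels are TMM-scaled CPM. edgeR 4.0.16 (filterByExpr, 1 mean per group over 27 libraries, robust quasi-likelihood F test) gave log2 fold changes, with Benjamini-Hochberg adjusted p-values over the 5692 genes tested; 303 genes did not pass the filter. The test was first tried on simulated counts. Replicates are individual colonies per the labels, and no replicates agreed within sampling noise. Ratios were compared with exact permutation tests. The alternatives were DESeq2 1.42.0, RLE size factors, TMM without the array genes, library totals, no filter, only the libraries compared, a replicate block, and each replicate left out. The members, gene lists and tests were chosen with earlier results of these data known, and the motifs and printed stretches after values were seen. Other genes named are FBP1, FBP26, HIS3, the called genes with the largest changes in each list, and those of the most similar pattern. Upstream windows of 500 bases were read from the R64 genome.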

Additional observations from a re-analysis of the deposited data

Results flagged for a closer look

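The 16 results given here are strain differences whose size changed with the carbon source by edgeR's interaction test, as log2 differences ± SE. Of all tested genes, 47.3% (LCY002 against LCY001), 11.2% (LCY002 against BY4741) and 50.9% (LCY001 against BY4741) were called for galactose minus glucose. For ethanol/glycerol minus glucose the shares were 60.5%, 39.5% and 46.0% in the same order. For LCY002 against LCY001, galactose minus glucose was 0.36 ± 0.07 for PFK1, 0.96 ± 0.27 for PFK27, 0.51 ± 0.09 for PFK26 and 0.19 ± 0.08 for PFK2 (edgeR adjusted p = 6.86e-05, 0.00705, 8.31e-05 and 0.0408). The PFK2 call was lost with DESeq2, RLE size factors and library totals, among other fits. Ethanol/glycerol minus glucose was -0.32 ± 0.06 for PGI1, 0.48 ± 0.07 for PFK1, -1.25 ± 0.31 for PFK27 and 0.51 ± 0.09 for PFK26 (edgeR adjusted p = 6.36e-05, 7.75e-07, 0.00171 and 2.92e-05). For LCY002 against BY4741, galactose minus glucose was 0.33 ± 0.06 for PGI1, 0.32 ± 0.07 for PFK1 and 1.18 ± 0.28 for PFK27 (edgeR adjusted p = 0.000557, 0.00174 and 0.00763), and ethanol/glycerol minus glucose was 0.61 ± 0.07 for PFK1 (edgeR adjusted p = 6e-08). For LCY001 against BY4741, galactose minus glucose was 0.21 ± 0.06 for PGI1 and -0.56 ± 0.10 for PFK26 (edgeR adjusted p = 0.00573 and 2.09e-05), and ethanol/glycerol minus glucose was 0.31 ± 0.06 for PGI1 and -0.46 ± 0.09 for PFK26 (edgeR adjusted p = 0.000184 and 0.000206). HIS3, the plasmid marker, had log2 fold changes of LCY002 over LCY001 of -1.56 (glucose), -1.42 (galactose) and -0.69 (ethanol/glycerol); its part in these results was not tested.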

How the results depend on the processing

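The 5 array members were called higher in LCY002 than in each control on each carbon source under all 7 other fits and without any one library. With library totals as the scale, edgeR called 3309 genes between LCY002 and LCY001 in galactose, against 2175 with TMM, the median of all genes moved by up to 0.23 on the log2 scale, FBP26 turned to -0.04 in galactose (0.10 with TMM), and 0 members were called between LCY001 and BY4741 in galactose, where TMM called 1 and leaving out single libraries 0 to 3. With that scale 4 regulators were called in galactose, against 2 with TMM. In ethanol/glycerol 655 genes were called between LCY001 and BY4741, 257 with only the libraries compared, and 394 to 1030 without single libraries, the highest without BY4741 replicate 3; the members called were 0, and 0 to 2 without single libraries. For ethanol/glycerol minus glucose, 2 members were called between LCY002 and BY4741 with only the libraries compared (1 otherwise) and 4 between LCY001 and BY4741 with DESeq2 (2 with edgeR). Without single libraries some values that were not called with all libraries changed sign: PFK27 of LCY002 against LCY001 in glucose (-0.04 to 0.03), FBP1 in glucose (-0.16 to 0.01), PFK27 of LCY001 against BY4741 in galactose (-0.31 to 0.31) and PFK26 in ethanol/glycerol (-0.17 to 0.02). The cause was not tested. With the replicate block, 1 of 139 single-gene log2 fold changes lost its call, the PFK2 interaction of 0.19 (edgeR adjusted p = 0.0712); same-numbered libraries correlated at -0.21 to 0.247, so the numbers do not pair the libraries, and no other of these calls changed. With deposited FPKM 44 of 56 member levels relative to BY4741 in glucose moved by over 1 SD, by at most 0.19 on the log2 scale.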
